A study of Mus musculus with 6 samples.

Results

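The 8 genes described here encode plasma membrane amino acid transporters: Slc7a5, Slc7a6 and Slc7a7, their partner Slc3a2, and Slc1a5, Slc38a1, Slc38a2 and Slc43a2. They were chosen by function, with the counts of these same libraries in all 3 groups already known, so that their own values are given as a description and not as a test. They are 8 of the 38887 genes in the count table, and 7 of them had enough counts to be among the 12259 genes tested. Slc7a6 did not.

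Ly6G+ cells were isolated with magnetic beads from the bone marrow (BM) of naive mice, of mice bearing LL2 tumors for 1 week and of mice bearing them for 3 weeks. LL2 is a Lewis lung carcinoma line. The study's methods describe its cells as expressing luciferase and injected into a vein, which places the tumors in the lung, and describe the mice as C57BL/6 animals without a separate age or sex for these libraries. The sample titles name no genetic change for any group. Which of the C57BL/6 lines listed in the methods were sequenced is not stated. Each group had 2 libraries, labelled as replicate mice of that group, so that p-values measure the spread between these libraries. In bulk RNA, fewer cells of one kind and less RNA per cell cannot be told apart. The labels call these cells neutrophils and, together with the methods, give a purity above 95%. All 12 neutrophil markers (among them Ly6g, S100a8, Csf3r and Ltf) had counts in every library, with a summed level between 287787 and 352106 CPM. Some of the 12 differed between the groups, in both directions, as given below with the markers of other cells.

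Cells take up essential amino acids through a small number of carrier families. SLC3A2 (CD98) is a heavy chain that carries no substrate itself and brings light chains to the plasma membrane. Its light chain SLC7A5 (LAT1) exchanges large neutral amino acids such as leucine for intracellular glutamine, and SLC7A7 and SLC7A6 exchange cationic for neutral amino acids. SLC1A5 (ASCT2), SLC38A1 (SNAT1) and SLC38A2 (SNAT2) bring in glutamine and other small neutral amino acids with sodium, and SLC43A2 (LAT4) lets large neutral amino acids through without a partner. Leucine and glutamine taken up by these routes feed protein synthesis and the activation of the kinase complex mTORC1, and the transcription factor ATF4 induces several of the genes when amino acids are short.

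Expression is given as CPM, counts relative to a library's total after scaling by TMM (a method that sets libraries to a common level over most genes). Differences are log2 fold changes from edgeR's quasi-likelihood test in one model of all 6 libraries, with a standard error (SE). A gene is called when its p-value, adjusted over all tested genes by the Benjamini-Hochberg method, is under 0.05. Library totals ran from 11994158 to 14127919 counts, and 3 counts, set here as the limit of detection, amounted to 0.2 to 0.245 CPM. These limits cover counting error only. Between naive and week 1 LL2 mice, 979 genes were called, 7.99% of those tested. Between naive and week 3 LL2 mice it was 2627 genes (21.4%), and between week 1 and week 3 LL2 mice 2760 genes (22.5%). With library size alone in place of TMM, the median over all genes shifted by -0.15 on the log2 scale for week 3 against naive and by -0.20 for week 3 against week 1. The share of called genes that were higher then went from 52.9% to 68.6% for week 1 against naive, from 56% to 34.7% for week 3 against naive and from 57.5% to 28.7% for week 3 against week 1.

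Of the 7 tested transporters, 0 were called between week 1 LL2 and naive mice. At week 3, Slc7a5 alone was called against naive mice. Against week 1, Slc7a5 and Slc38a2 were called as higher and Slc1a5 as lower. Beside the 7.99%, 21.4% and 22.5% of all genes, these are 0, 14.3% and 42.9% of the 7, shares that the choice of the genes helped to set. The median log2 fold change of the 7 was -0.03 for week 1 against naive, 0.29 for week 3 against naive and 0.33 for week 3 against week 1. Over all tested genes it was 0.01, 0.03 and -0.02. With a library left out, 2 of the 7 were called for week 3 against naive without naive replicate 1, and 1 for week 3 against week 1 without week 1 replicate 1, week 1 replicate 2 or week 3 replicate 1.

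**Figure D1:**
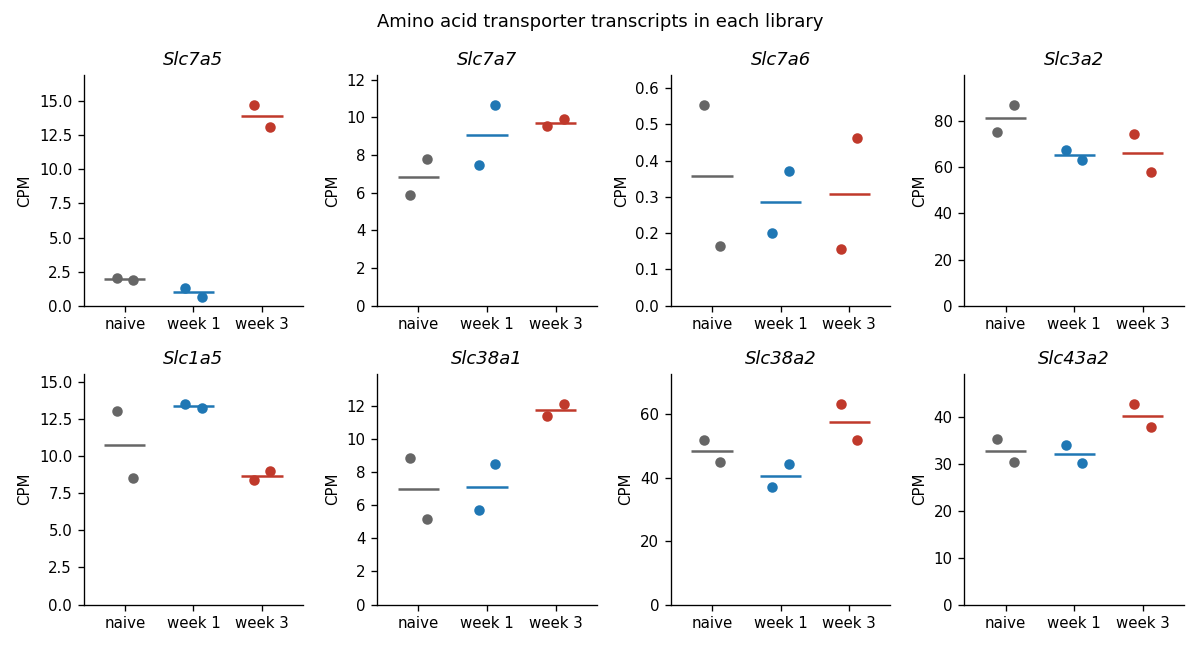
Each panel shows one transporter, with the level in CPM on a linear vertical axis from 0. Points are the 2 libraries of each group and lines their mean. Slc7a5 lies between 13.1 and 14.7 CPM at week 3 and at or under 2.06 CPM in the other 4 libraries.

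Slc7a5 (ENSMUSG00000040010; GRCm38 chr8:121881150-121907694, minus strand) had the widest range of group means, 3.67 on the log2 scale, against 0.79 for the next, Slc38a1. It was at 2.06 and 1.88 CPM in the naive libraries, at 1.33 and 0.671 CPM in the week 1 libraries and at 14.7 and 13.1 CPM in the week 3 libraries. The week 3 libraries stood apart from the other 4, and the week 1 libraries both lay below the naive ones. The counts behind these levels were 26 and 23, 20 and 9, and 190 and 171. The log2 fold change was 2.82 (SE 0.288) for week 3 against naive, which is 7.05-fold, and 3.77 (SE 0.31) for week 3 against week 1, which is 13.6-fold. Both calls held under each of the 13 alternative settings and left-out libraries, with log2 fold changes between 2.67 and 2.90 and between 3.34 and 4.32. For week 1 against naive it was -0.95 (SE 0.366) and not called, with values between -1.54 and -0.56 under the alternatives.

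Slc3a2 (ENSMUSG00000010095; chr19:8706882-8723369, minus strand), the heavy chain, had the highest level of the 8 per length of transcript in every group. Its libraries were at 75.2 and 86.9 CPM in naive mice, at 67.3 and 63.3 CPM at week 1 and at 74.3 and 58.0 CPM at week 3. Both week 1 libraries lay below the naive ones, and the week 3 libraries lay below the naive ones and on either side of week 1. The log2 fold change was -0.31 (SE 0.14) for week 1 against naive, -0.29 (SE 0.14) for week 3 against naive and 0.02 (SE 0.14) for week 3 against week 1, none of them called. The last took the other sign with library size alone (-0.19), where the change from naive to week 3 was called as lower (-0.44). In all 3 comparisons and all 13 alternatives, the log2 fold change of this heavy chain lay between -0.48 and 0.19.

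Slc7a7 (ENSMUSG00000000958; chr14:54369442-54417780, minus strand), which exports arginine and lysine in exchange for neutral amino acids, was at 5.85 and 7.77 CPM in naive mice, 7.47 and 10.7 CPM at week 1 and 9.53 and 9.91 CPM at week 3. The week 3 libraries lay above both naive ones, while week 1 overlapped both groups. The log2 fold change was 0.41 (SE 0.23) for week 1 against naive, 0.51 (SE 0.231) for week 3 against naive and 0.11 (SE 0.223) for week 3 against week 1, none of them called, and the last was -0.09 with library size alone. Exons of Slc7a7 share 232 bases with Oxa1l on the other strand. Whether the counting used strand is not given in the sources used here, so that reads from these bases cannot be told apart. Slc7a6 (ENSMUSG00000031904; chr8:106168857-106198706, plus strand), a close relative with the same kind of exchange, had between 2 and 7 counts per library (0.155 to 0.553 CPM), at or near the limit of detection in all 3 groups.

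The light chains share this heavy chain, and 3 further ones are not among the 8 genes: Slc7a8 (LAT2, neutral amino acids), Slc7a11 (xCT, which imports cystine in exchange for glutamate) and Slc7a10 (neutral amino acids, with 0 counts in every library). Levels of the 6, a group formed after their values were seen, were set side by side as CPM per kilobase of merged exons and were not tested. Slc7a5 made up 4.18% and 4.96% of their sum in the naive libraries, 3.77% and 1.79% at week 1 and 28.4% and 28.2% at week 3. Slc7a11 went the other way, with 18.6% and 19.1% in naive mice, 18.9% and 13.2% at week 1 and 3.27% and 4.61% at week 3. Slc7a8 held the largest share in all 6 libraries, between 42.6% and 63.1%, and Slc7a7 held between 13.3% and 31.8%. Slc7a5 thus went from a minor light chain transcript to the second most abundant at week 3, ahead of Slc7a7 with 20.6% and 23.8%. With the length of the longest transcript in place of merged exons, the share of Slc7a5 at week 3 was 24.3% and 23.9% and that of Slc7a7 24.3% and 27.8%, so that the order of these genes at week 3 depends on the length used. The summed light chains relative to Slc3a2 were 0.623 and 0.415 in naive mice, 0.5 and 0.563 at week 1 and 0.663 and 0.765 at week 3, with both week 3 libraries above the other 4.

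**Figure D2:**
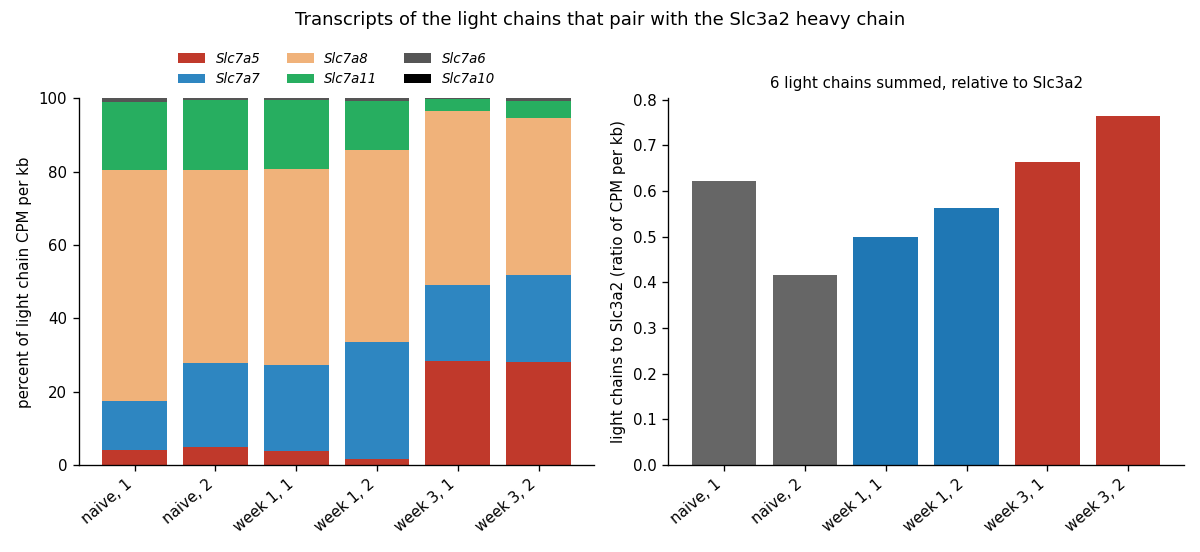
Left, the share of each light chain in the summed CPM per kilobase of the 6 light chains, as stacked bars for each library. Right, the ratio of that sum to Slc3a2. Slc7a5 takes 28.4% and 28.2% at week 3 and at most 4.96% in the other libraries, and Slc7a11 takes 3.27% and 4.61% at week 3 and at least 13.2% elsewhere.

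Of the sodium-coupled carriers of glutamine and small neutral amino acids, Slc38a2 and Slc38a1 had their highest mean at week 3 and Slc1a5 its lowest. Slc38a2 (ENSMUSG00000022462; chr15:96687392-96699730, minus strand) was at 51.9 and 45.0 CPM in naive mice, 37.0 and 44.2 CPM at week 1 and 63.2 and 51.9 CPM at week 3. Its log2 fold change was -0.26 (SE 0.146), 0.25 (SE 0.145) and, for week 3 against week 1, 0.50 (SE 0.145), the only one of the 3 called. That call was lost with library size alone (0.30) and without week 1 replicate 1 (0.35), week 1 replicate 2 (0.61) or week 3 replicate 1 (0.35).

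Slc38a1 (ENSMUSG00000023169; chr15:96571418-96642913, minus strand) was at 8.85 and 5.15 CPM in naive mice, 5.73 and 8.49 CPM at week 1 and 11.4 and 12.1 CPM at week 3. Both week 3 libraries exceeded the other 4, whose 2 groups overlapped. The log2 fold change of 0.75 (SE 0.261) for week 3 against naive was not called, although it was without a filter on low counts and without naive replicate 1 (1.16). For week 3 against week 1 it was 0.73 (SE 0.258), also not called except on the pair of groups alone, without the filter and without naive replicate 2 (0.70 to 0.73), and for week 1 against naive 0.02 (SE 0.269).

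Slc1a5 (ENSMUSG00000001918; chr7:16781340-16798274, plus strand) was at 13.0 and 8.50 CPM in naive mice, 13.5 and 13.3 CPM at week 1 and 8.37 and 8.99 CPM at week 3. The week 3 libraries lay below both week 1 libraries, and 1 naive library lay near each of these groups. The log2 fold change for week 3 against week 1 was -0.63 (SE 0.209) and was called as lower. It was not called with DESeq2 (-0.63), with the replicate block (-0.62), or without week 1 replicate 1 (-0.65), week 1 replicate 2 (-0.67), week 3 replicate 1 (-0.58) or week 3 replicate 2 (-0.68). Against naive mice it was 0.31 (SE 0.206) at week 1 and -0.31 (SE 0.213) at week 3, neither of them called.

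Slc43a2 (ENSMUSG00000038178; chr11:75531694-75577575, plus strand), which carries large neutral amino acids without exchange, was at 35.3 and 30.3 CPM in naive mice, 33.9 and 30.1 CPM at week 1 and 42.8 and 37.7 CPM at week 3. Its exons share 922 bases with Gm45606 on the other strand, a gene that was not counted. Reads from these bases cannot be told apart either. The week 3 libraries lay above the other 4, and naive and week 1 overlapped. The log2 fold changes were -0.03 (SE 0.14), 0.29 (SE 0.139) and 0.33 (SE 0.138), none of them called, and the first was 0.02 with library size alone.

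**Figure D3:**
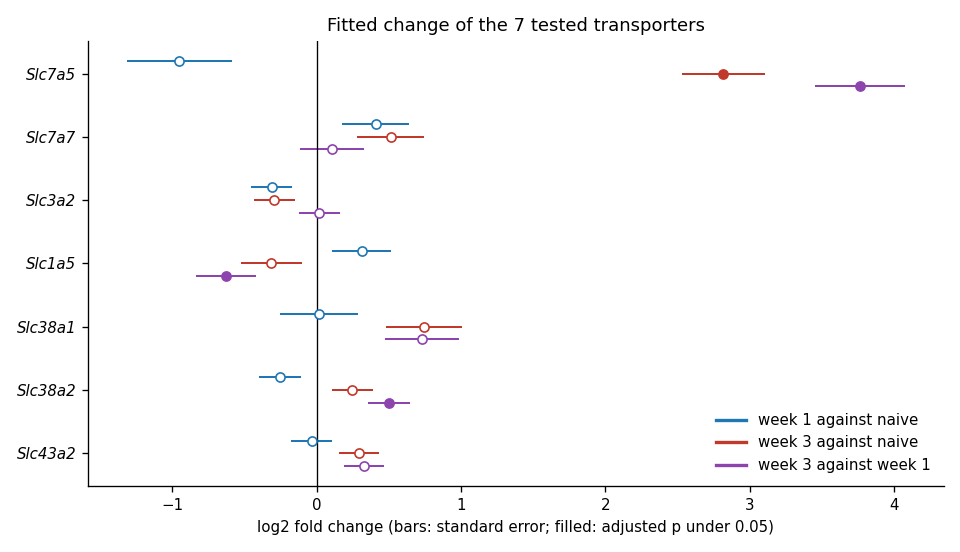
Points are fitted log2 fold changes of the 7 tested transporters on the horizontal axis, in 3 colors for the 3 comparisons, and bars are standard errors. Filled points were called. Slc7a5 stands at 2.82 and 3.77 for the week 3 comparisons, at -0.95 for week 1 against naive, and the values of the other genes lie between -0.63 and 0.75.

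Ordered by CPM per kilobase, the naive libraries ran from Slc3a2 (23.0 ± 2.35, SD, n = 2) over Slc38a2 (5.48 ± 0.55), Slc43a2, Slc1a5, Slc7a7, Slc7a5 (0.531 ± 0.0333) and Slc38a1 to Slc7a6 (0.0784 ± 0.0603). Neighbours whose libraries overlapped were Slc43a2 and Slc1a5, Slc1a5 and Slc7a7, and Slc7a5 and Slc38a1. At week 1 Slc7a5 stood last but for Slc7a6, with 0.27 ± 0.126, overlapping Slc38a1 above it. At week 3 it stood just under Slc43a2 with 3.76 ± 0.303, overlapping its 4.01 ± 0.356 and clear of Slc7a7 (2.93 ± 0.0806) below it. With the length of the longest transcript, Slc7a5 and Slc38a1 changed places in naive mice, and Slc7a5 and Slc7a7 at week 3. By their mean over all 6 libraries, the 7 tested genes lay above between 19.1% (Slc38a1) and 85.8% (Slc3a2) of the 12101 tested genes with a length, and Slc7a5 above 39.6%. The level per kilobase summed over all 8 genes was 36.8 and 38.0 in naive mice, 32.9 and 33.1 at week 1 and 42.0 and 35.6 at week 3, of which Slc3a2 made up the largest part.

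Genes with the pattern closest to that of Slc7a5 were looked for among all tested genes, by the root mean square difference of log2 CPM from the naive mean over the 6 libraries. The closest were Cbr3, a carbonyl reductase, with a difference of 0.3, and Mcam, a cell adhesion molecule, with 0.305. Mean levels of Cbr3 were 1.94 CPM in naive mice, 1.14 CPM at week 1 and 15.5 CPM at week 3, and those of Mcam 6.17, 3.50 and 33.4 CPM. Next came Paqr8 (0.446), at 0.281, 0.108 and 2.24 CPM, and Cyp2s1 (0.492), at 0.0409, 0 and 1.08 CPM. Both were near or under the limit of detection outside week 3, so that they passed the filter on low counts through week 3 alone. Socs3 (0.497), the inhibitor of cytokine signaling through STAT3, was at 29.5, 22.7 and 162 CPM. This is a likeness over 6 libraries of 3 groups and was not tested.

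Of 37 further genes listed here as plasma membrane transporters of amino acids, 12 had enough counts. Where their proteins lie in these cells, Slc38a10 included, was not tested. The other 25 had at most 10 counts in any library, and 10 of them had 0 counts in all 6. For week 1 against naive 1 of the 12 was lower, against 3.76% of all genes called as lower and 4.23% as higher. For week 3 against naive 1 was higher (12% of all genes) and 1 lower (9.42%), which is 16.7% of the 12 beside 21.4% of all genes. For week 3 against week 1, 3 were higher (13%) and 1 lower (9.56%), 33.3% of the 12 beside 22.5%. Their median log2 fold change was -0.05, 0.07 and 0.10. The count for week 1 was 0 without naive replicate 1 or week 1 replicate 2 and 2 without naive replicate 2.

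Slc7a11 fell at week 3. It was at 34.3 and 27.2 CPM in naive mice, 25.1 and 18.6 CPM at week 1 and 6.35 and 8.07 CPM at week 3. The log2 fold change was -2.09 (SE 0.202, adjusted p = 1.43e-05) against naive and -1.60 (SE 0.203, adjusted p = 1.16e-04) against week 1 by edgeR, and it was called in all 13 alternatives to each. Slc16a10 (TAT1), which carries aromatic amino acids, rose, with 9.17 and 8.01 CPM in naive mice, 6.53 and 7.52 CPM at week 1 and 22.3 and 15.4 CPM at week 3. Its log2 fold change was 1.13 (SE 0.208, adjusted p = 0.00182) against naive and 1.42 (SE 0.21, adjusted p = 3.46e-04) against week 1 by edgeR, and it too was called in all alternatives.

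Slc6a6, the taurine transporter, had the highest level per length of all 29 tested transporters in every group. It was at 306 and 237 CPM in naive mice, 199 and 154 CPM at week 1 and 345 and 343 CPM at week 3. By edgeR it fell between naive mice and week 1 (-0.62, SE 0.147, adjusted p = 0.0224) and was higher at week 3 than at week 1 (0.96, SE 0.148, adjusted p = 4.7e-04). The first call was lost without naive replicate 1 (-0.43, adjusted p = 0.206), without week 1 replicate 2 (-0.45, adjusted p = 0.209) and with library size alone (adjusted p = 0.051), and the second was kept in all alternatives. Slc38a10 was higher at week 3 than at week 1 by 0.43 (SE 0.121, adjusted p = 0.0217). That call was lost with library size alone (adjusted p = 0.204) and without week 1 replicate 1 (adjusted p = 0.136), week 1 replicate 2 (adjusted p = 0.149) or week 3 replicate 1 (adjusted p = 0.117). Slc7a8, the light chain with the highest level, was not called, with log2 fold changes of -0.41 (SE 0.188), -0.20 (SE 0.187) and 0.21 (SE 0.189).

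Some lysosomal transporters return amino acids from degraded protein to the cytosol, and all 10 listed were tested. At week 1, 0 of them were called against naive mice by edgeR, and Slc36a1 had the smallest p-value, with -0.45 (SE 0.129, adjusted p = 0.0514). At week 3, 2 were higher against naive mice and 3 against week 1, and 0 were lower. These are 20% and 30% of the 10, beside 21.4% and 22.5% of all genes. Ctns, the cystine exporter of the lysosome, was at 8.30 and 10.3 CPM in naive mice, 6.33 and 8.05 CPM at week 1 and 22.0 and 19.0 CPM at week 3. By edgeR it rose by 1.14 (SE 0.19, adjusted p = 9.22e-04) against naive and by 1.51 (SE 0.193, adjusted p = 1.19e-04) against week 1, in all alternatives. Slc36a4, a carrier of proline and tryptophan, rose by 1.07 (SE 0.225, adjusted p = 0.00454) and 1.21 (SE 0.224, adjusted p = 0.00186), the first of which was lost without naive replicate 1 (adjusted p = 0.0539) and left Ctns alone called. Slc38a9, an arginine sensor upstream of mTORC1, was higher at week 3 than at week 1 by 0.41 (SE 0.135, adjusted p = 0.0433), and this call was lost with DESeq2 (adjusted p = 0.0884) and on leaving out any library but week 3 replicate 2, with adjusted p between 0.0532 and 0.29.

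**Figure D4:**
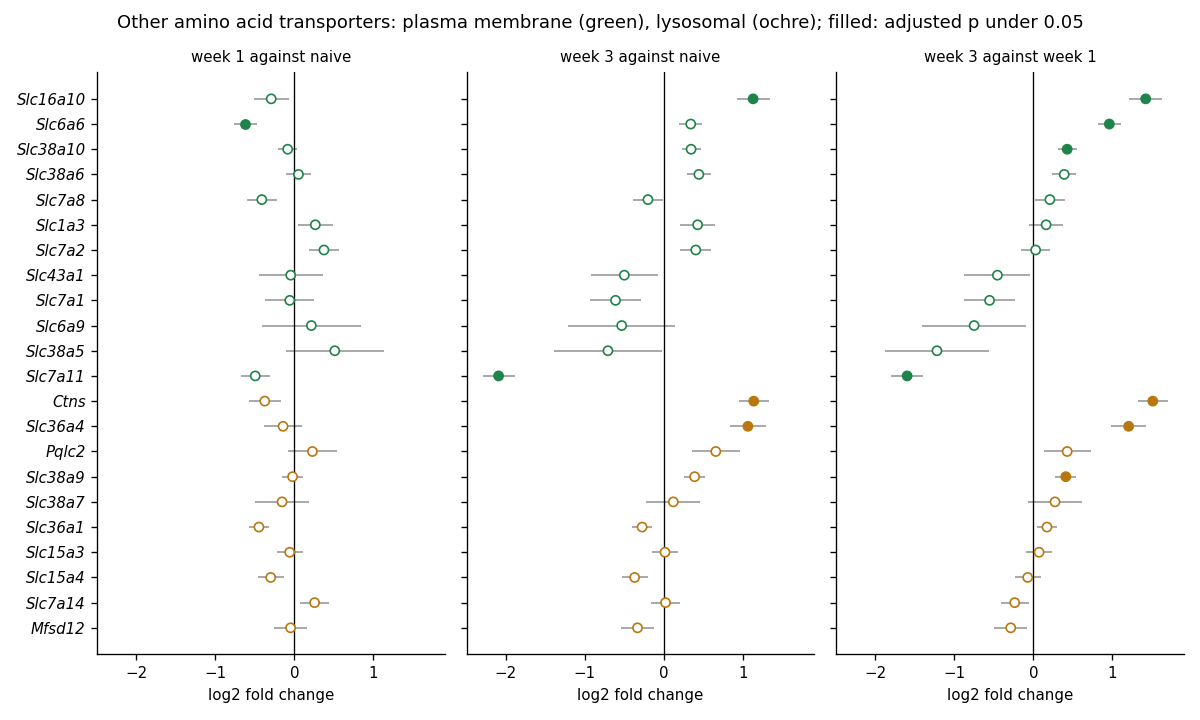
Log2 fold changes with standard errors of the 22 tested transporters that are not among the 8 genes, with a panel for each comparison. Green marks the plasma membrane list, ochre the lysosomal list, and filled points were called. Slc7a11 lies at -2.09 and -1.60 in the week 3 comparisons, and Slc16a10, Ctns and Slc36a4 lie above 1 in both.

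Promoters were read from RefSeq (GRCm38.p6) as the 250 bases before to 50 bases after each start, for a pair of motifs on both strands. CACGTG is the E-box bound by MYC and its relatives, and TGATGCAA is an element bound by dimers of C/EBP and ATF proteins such as ATF4. A promoter was at hand for 5 of the 8 genes (Slc3a2, Slc7a6, Slc7a7, Slc38a2 and Slc43a2), of which 0 held CACGTG and 1, Slc7a7, held TGATGCAA. It was at hand for 18 of the 22 other tested transporters, of which 5 held CACGTG (Slc36a1, Slc38a5, Slc38a7, Slc43a1 and Slc7a14) and 1, Slc7a11, held TGATGCAA. A gene was counted when any of its starts held the motif, and Slc7a7 has 5 starts. Counted in the same way, 8.09% of all 27025 genes with a promoter held CACGTG and 1.03% held TGATGCAA. Of all 32851 promoters, one for each start, it was 7.15% and 0.895%. The pair of promoters with TGATGCAA is shown because they belong to Slc3a2 light chains whose log2 fold changes for week 3 against naive had opposite signs (-2.09 and called for Slc7a11, 0.51 and not called for Slc7a7), with the motif or its reverse complement in capitals. The first is the 250 bases before the start of Slc7a11 (chr3:50443614-50443863, minus strand), with 2 matches, and the second is 150 bases before to 10 after a start of Slc7a7 (chr14:54417935-54418094, minus strand), with 1 match across the start.
Slc7a11: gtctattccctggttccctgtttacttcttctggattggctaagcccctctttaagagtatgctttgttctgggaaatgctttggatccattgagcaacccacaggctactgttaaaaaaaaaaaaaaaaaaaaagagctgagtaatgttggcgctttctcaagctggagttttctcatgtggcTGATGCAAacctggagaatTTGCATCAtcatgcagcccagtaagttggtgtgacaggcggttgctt
Slc7a7: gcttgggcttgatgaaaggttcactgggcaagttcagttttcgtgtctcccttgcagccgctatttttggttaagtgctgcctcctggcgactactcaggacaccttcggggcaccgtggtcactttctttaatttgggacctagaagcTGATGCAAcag
A match is a description of these letters and was not tested as a binding site.

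The amino acid response list holds genes that sense or answer a shortage of amino acids, 17 of 21 of them tested. Against naive mice 0 were called at week 1 by edgeR, and at week 3, 3 were higher and 3 lower. Against week 1, 4 were higher and 3 lower. These are 0, 35.3% and 41.2% of the 17, beside 7.99%, 21.4% and 22.5% of all genes. Cebpb, a transcription factor of myeloid cells, rose from 325 ± 67.5 CPM (SD, n = 2) in naive mice to 940 ± 16.8 CPM at week 3, a log2 fold change of 1.53 (SE 0.165, adjusted p = 3.6e-05) by edgeR. Asns, asparagine synthetase, rose by 1.02 (SE 0.217, adjusted p = 0.00481), a call lost without naive replicate 1 (adjusted p = 0.0757). Atf3 fell by 1.74 (SE 0.219, adjusted p = 1.27e-04) and Mthfd2, a mitochondrial folate enzyme, fell by 0.88 (SE 0.142, adjusted p = 7.19e-04). Ddit4, an inhibitor of mTORC1, was higher at week 3 than at week 1 by 1.05 (SE 0.16, adjusted p = 4.49e-04). The calls of Cebpb, Atf3 and Mthfd2 against naive and of Ddit4 against week 1 were kept in all alternatives. Atf4 itself was at 240 ± 3.17 CPM in naive mice, 238 ± 19.6 CPM at week 1 and 207 ± 5.82 CPM at week 3, with log2 fold changes of -0.01 (SE 0.112), -0.22 (SE 0.112) and -0.20 (SE 0.112), none of them called. With library size alone the values at week 3 were called as lower (-0.36 and -0.41). Eif2ak4 (GCN2), the kinase that senses uncharged tRNA, was at 1.61, 1.86 and 2.70 CPM and was not called. Without week 1 replicate 2, the 7 calls of this list for week 3 against week 1 were 4.

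Of 34 tested genes that carry the signal of amino acids to mTORC1, 2 were higher and 1 lower at week 1 against naive mice, 2 higher and 4 lower at week 3 against naive, and 4 higher and 2 lower at week 3 against week 1. These are 8.82%, 17.6% and 17.6% of the list, beside 7.99%, 21.4% and 22.5% of all genes. Rraga, a subunit of the Rag GTPases that bring mTORC1 to the lysosome, fell at week 1 from 115 ± 16.2 to 50.4 ± 9.63 CPM (-1.19, SE 0.149, adjusted p = 7.17e-04). At week 3 it was at 76.4 ± 3.04 CPM, lower than in naive mice (-0.60, SE 0.147, adjusted p = 0.0115), a call lost without naive replicate 1 (adjusted p = 0.0941) or week 3 replicate 2 (adjusted p = 0.0609). The kinase Mtor rose from 5.46 ± 0.21 CPM in naive mice to 9.18 ± 0.0257 CPM at week 1 (0.75, SE 0.194, adjusted p = 0.0331) and was at 11.6 ± 0.181 CPM at week 3 (1.08, SE 0.193, adjusted p = 0.00145 against naive). Week 3 against week 1 was not called (0.33, SE 0.182, adjusted p = 0.211). At week 3 Rheb, its direct activator, rose from 12.6 ± 0.0753 to 24.3 ± 3.89 CPM (0.94, SE 0.165, adjusted p = 0.00126). Rragd fell to 1.47 ± 0.118 CPM (-1.58, SE 0.331, adjusted p = 0.0042) and Mlst8, a subunit of the complex, fell from 177 ± 4.59 to 105 ± 11.1 CPM (-0.76, SE 0.119, adjusted p = 5.87e-04). By edgeR the call of Rraga at week 1 and those of the other 4 genes at week 3 were kept in all alternatives. For week 1 Rraga was the only call without any 1 of the naive and week 1 libraries and with DESeq2, and for week 3 against week 1 the count was 2 without week 1 replicate 2 and 3 without week 3 replicate 1.

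Among 13 tested enzymes of glutamine and branched-chain amino acids, 2 were lower at week 1 against naive mice. At week 3, 5 were higher and 2 lower against naive, 53.8% of the 13, and 6 were higher and 0 lower against week 1, 46.2%. With 15.4% at week 1, these shares stand beside 21.4%, 22.5% and 7.99% of all genes. Got2, the mitochondrial aspartate aminotransferase, rose from 76.1 ± 10.5 CPM in naive mice to 128 ± 10.8 CPM at week 3 (0.76, SE 0.129, adjusted p = 0.00109), in all alternatives. Dbt, a subunit of the branched-chain keto acid dehydrogenase, fell at week 1 from 36.2 ± 4.76 to 12.3 ± 1.47 CPM (-1.55, SE 0.157, adjusted p = 1.35e-04) and was at 22.5 ± 0.248 CPM at week 3, above week 1 (0.87, SE 0.159, adjusted p = 0.00169), both calls kept in all alternatives. The count for week 1 was 1 without naive replicate 1 or week 1 replicate 2. For week 3 against naive the count was 3 to 4 without any 1 of the libraries compared, and for week 3 against week 1 it was 2 without week 1 replicate 1 or 2.

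Of the 20 tested cytosolic aminoacyl-tRNA synthetases, which load tRNA with the amino acids taken up, 2 were lower at week 1 against naive mice, 3 were higher and 1 lower at week 3 against naive, and 2 were higher and 1 lower at week 3 against week 1. These are 10%, 20% and 15% of the list, beside 7.99%, 21.4% and 22.5% of all genes. Gars was higher at week 3 than in naive mice (0.72, SE 0.165, adjusted p = 0.00733), a call lost without naive replicate 1 (adjusted p = 0.08). Without any 1 of the libraries compared, the list had 0 calls for week 1 against naive and 0 to 2 for week 3 against naive, and for week 3 against week 1 it had 1 without week 1 replicate 1 and 0 without week 1 replicate 2. With library size alone 7 were lower and 0 higher in that comparison. Of 9 tested genes of the Myc network, 1 was lower at week 1 against naive mice, 3 were higher at week 3 against naive, and 2 were higher at week 3 against week 1, among them Mnt, a repressor that competes with MYC (0.83, SE 0.168, adjusted p = 0.00324), in all alternatives. These are 11.1%, 33.3% and 22.2% of the 9, beside the same shares of all genes. The calls for week 1 were lost without any 1 of the libraries compared, those for week 3 against naive fell to 0 or 1 without any 1 library and to 0 with DESeq2, and those for week 3 against week 1 fell to 1 without week 1 replicate 1, week 1 replicate 2 or week 3 replicate 1. Myc itself was not tested, with means of 0.363 CPM in naive mice, 0.698 CPM at week 1 and 0.579 CPM at week 3.

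**Figure D5:**
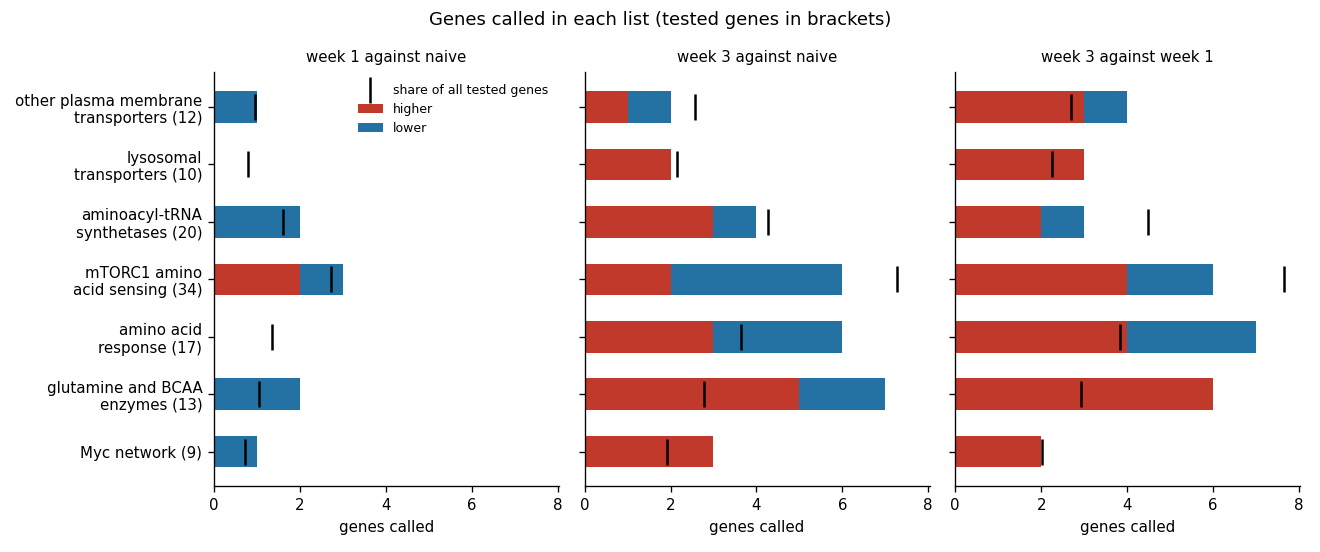
Bars give the number of genes called as higher (red) and lower (blue) in each list, with a panel for each comparison, and the black mark gives the number that the share of all tested genes (7.99%, 21.4% and 22.5%) would make of the list. The enzymes of glutamine and branched-chain amino acids reach 7 of 13 genes for week 3 against naive.

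Cell markers also moved between the groups. Calls over all tested genes were 7.99% for week 1 against naive, 21.4% for week 3 against naive and 22.5% for week 3 against week 1. Of the 12 neutrophil markers, 1 was higher at week 1 than in naive mice. At week 3, 2 were higher and 3 lower against naive, and 4 were higher and 3 lower against week 1. These are 8.33%, 41.7% and 58.3% of the 12. Markers of other cells moved as well. Of 7 genes of early neutrophil precursors, 5 were higher at week 3 than in naive mice (the granule protein genes Elane, Mpo, Prtn3 and Ctsg, and Ms4a3) and 2, the proliferation genes Mki67 and Top2a, were lower. Their summed level was between 239 and 276 CPM in naive mice, between 191 and 259 CPM at week 1 and between 342 and 449 CPM at week 3. All 10 B lineage genes were lower at week 3 than in naive mice, with sums from 65.1 to 87.2 CPM in naive mice, from 55.6 to 70.0 CPM at week 1 and from 13.8 to 22.2 CPM at week 3, and Rag1 was at 0 in both week 3 libraries. Summed erythroid markers were between 450 and 496 CPM in naive mice, between 532 and 581 CPM at week 1, and at 578 and 246 CPM in the week 3 libraries. Of the 8 erythroid genes, 0 were called at week 1 against naive mice. At week 3, Klf1 was lower than in naive mice, and Klf1 and Hba-a1 were lower than at week 1. Monocyte, macrophage and dendritic markers summed to between 169 and 200 CPM in all groups. Of these 9 genes, 2 were lower at week 1 and 3 at week 3 than in naive mice (Irf8 in both, Siglech at week 1, Cx3cr1 and Cd74 at week 3), and 3 were lower and 1 higher at week 3 than at week 1. T and NK cell markers summed to between 13.6 and 14.4 CPM in naive mice, between 15.9 and 23.8 CPM at week 1 and between 8.60 and 11.1 CPM at week 3, with Ncr1 at 0 in both week 3 libraries. Of the 3 tested, Cd3d was lower at week 3 than in naive mice (-1.98 on the log2 scale) and Nkg7 higher (1.60). Megakaryocyte markers summed to between 57.2 and 57.5 CPM in naive mice, between 41.5 and 42.2 CPM at week 1 and between 33.2 and 38.8 CPM at week 3. Plasma cell markers summed to between 33.6 and 112 CPM in naive mice, between 35.3 and 41.3 CPM at week 1 and between 10.5 and 20.8 CPM at week 3. In each of these last 2 lists, 2 of 3 genes were lower at week 3 than in naive mice (Pf4 and Itga2b, Jchain and Mzb1), and Itga2b was lower at week 1 as well. Eosinophil, basophil and mast cell markers were at 20.1 to 23.6 CPM in naive mice, 40.9 to 45.7 CPM at week 1 and 15.4 to 18.2 CPM at week 3, with Epx and Fcer1a at 0 in week 3 replicate 2. Of the 4 tested, 3 were higher at week 1 than in naive mice (Prg2, Cpa3 and Mcpt8), which is 75%. At week 3, 2 were lower than in naive mice (Cpa3 and Mcpt8), and the same 3 were lower than at week 1. The part of these cells in the levels of Slc7a5 and the other transporters was not tested.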

How the data were processed

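RNA from Ly6G+ BM cells of 6 mice was sequenced with single-end reads from total RNA libraries. Per the labels, reads were aligned with Bowtie2 and quantified with RSEM 1.2.31 against mm10. What the authors deposited were the expected counts of RSEM, rounded and not normalized. Ensembl identifiers were matched to the GENCODE annotation of GRCm38 (37570 of 38887). Genes with low counts were removed with filterByExpr, libraries were scaled by TMM, and groups were compared by the quasi-likelihood test of edgeR 4.0.16 in R 4.3.3, with the group as the only factor. DESeq2 1.42.0 was an alternative. SE is the log2 fold change divided by the square root of F. The test was checked on simulated counts. Replicate libraries correlated across genes at 0.977 to 0.98 (Pearson's r, log2 CPM). No per-sample column was left unmapped.

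The members and lists were chosen with earlier results of these data known. Named were all members, tested transporters of other lists, and from each pathway list up to 4 genes per comparison with the smallest p-values and libraries that did not overlap, and Atf4, Myc and Eif2ak4. A listed gene is counted but not reported by itself here.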

Additional observations from a re-analysis of the deposited data

Results flagged for a closer look

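For each of the following transporters, the differences from naive mice at week 1 and at week 3 were not equal, by the test of week 3 against week 1 (edgeR, adjusted over all genes). Slc7a5 differed by 3.77 on the log2 scale, Slc38a2 by 0.50 and Slc1a5 by -0.63. These 3 belong to the genes chosen with results known, so that their values describe and do not test. The lists that hold the transporters named next were also chosen with earlier results known, and the same limit applies to them. Among the other plasma membrane transporters, Slc16a10 differed by 1.42, Slc6a6 by 0.96, Slc38a10 by 0.43 and Slc7a11 by -1.60. Among the lysosomal transporters, Ctns differed by 1.51, Slc36a4 by 1.21 and Slc38a9 by 0.41. For all of these transporters the means of naive mice and of week 1 lay on the same side of the week 3 mean. The mean at week 1 was the highest of the 3 groups for Slc1a5, lay between the others for Slc7a11, and was the lowest for the rest.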

How the results depend on the processing

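The alternatives were DESeq2, a fit restricted to each pair of groups, library size alone or DESeq2's size factors in place of TMM, no filter or a stricter one, the replicate block and each library left out in turn. A group left with 1 library is assumed to vary like the others. Genes called numbered 148 to 1100 for week 1 against naive with a library left out (148 without naive replicate 1, 234 without week 1 replicate 2, 336 without week 1 replicate 1) and 1537 with no filter on low counts, beside 979. They numbered 1372 to 2339 for week 3 against naive and 1452 to 2745 for week 3 against week 1 with a library left out. Of the 7 members, 1 to 2 were called for week 3 against naive with a library left out and 2 with library size alone or no filter, and 1 to 4 for week 3 against week 1. Of the other plasma membrane transporters, 0 to 2 were called for week 1 against naive with a library left out, 0 with library size alone and 2 with no filter. Small values changed sign. Slc38a1 for week 1 against naive was -0.0016 with DESeq2, -0.0048 with its size factors and -0.32 to 0.46 with a library left out. Slc43a2 for the same comparison was 0.018 with library size alone and -0.14 to 0.077 with a library left out, and Atf4 0.041 and -0.10 to 0.070. Eif2ak4 was -0.27 to 0.57 with a library left out, the lowest without week 1 replicate 2. For week 3 against week 1, Slc3a2 was -0.19 with library size alone, -0.012 with no filter and -0.17 to 0.19 with a library left out, and Slc7a7 was -0.095 and -0.17 to 0.35. The cause was not tested. Deviations of libraries that share a replicate number correlated by 0.01 to 0.038 across genes, so the numbers were not taken as pairs. With the replicate block, 956, 2560 and 2705 genes were called in the 3 comparisons, and of the members Slc1a5 alone lost its call (adjusted p = 0.0501). The order of the members per length was the same with library size alone in all 3 groups, and 18 of 24 levels per length moved by more than their SD with the longest transcript. Depth limits Slc7a6, and at week 1 also Slc7a5, which rests on 20 and 9 counts there.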
